A study of Saccharomyces cerevisiae S288C with 12 samples.

Results

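The genes described here make the membrane lipids of budding yeast: ergosterol, fatty acids and phospholipids. They were chosen by name as 38 of the 6002 nuclear protein-coding genes of the R64 annotation, and all 38 symbols were found. The choice was made with earlier results of these data known, and its part in any excess over all genes was not tested. Each gene was read over a window made of its body and the 500 bp upstream of its annotated start. The chromatin-bound protein is Cse4, the centromeric form of histone H3, which was driven from the GAL promoter. Overexpressed Cse4 is known to enter chromatin outside centromeres.

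Cse4 chromatin immunoprecipitation was sequenced from 3 strains of Saccharomyces cerevisiae. All of them carried psh1delta, a deletion of the gene for Psh1, a ubiquitin ligase that targets Cse4 for destruction, and a pGAL-6His-3HA construct. The construct encoded wild type Cse4 (YMB8953), cse4 K215/216A (YMB9245, lysines 215 and 216 replaced by alanine) or cse4 K215/216R (YMB9813, the same lysines replaced by arginine), and the last 2 are called the alanine mutant and the arginine mutant. Each of the 3 strains had 2 immunoprecipitated libraries, taken with an antibody to the HA tag. Cells grew at 30 degrees C in medium with 2% raffinose and received 2% galactose for 2 h. The deletion, the tag, the promoter and the induction are therefore shared by all groups, and no strain with Psh1 or without the tag was analysed here. The comparisons ask whether these lysines bear on where overexpressed Cse4 is found at lipid genes.

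Ergosterol is the main sterol of fungal membranes. Its carbon enters through the mevalonate pathway, which ends in farnesyl pyrophosphate, and the later enzymes turn squalene into ergosterol. Sterol genes are switched on by the zinc cluster activators Upc2 and Ecm22 when sterol runs low. Phospholipid genes are switched on by the Ino2 and Ino4 pair and held down by Opi1 when inositol is present.

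The 6 peak lists held 3123 to 4822 peaks, and the recovered genome background, a measure of depth, ran from 59.5 fragments per base in wild type replicate 1 to 155.9 in arginine mutant replicate 2. Wild type replicate 1 and arginine mutant replicate 1 (86.2) were the shallow libraries, and the other 4 lay between 126.4 and 155.9. All fold values below are the authors' own fold of a peak over its local background at the summit. They describe and rank peaks within a library and were not tested between strains. The median fold of a list was 1.657 and 1.481 in wild type, 1.433 and 1.446 in the alanine mutant, and 1.567 and 1.462 in the arginine mutant. Its part in the order of the strains at a gene was not tested. How often the strains separate in fold over all genes was not counted. Summit positions are in bp from the annotated gene start, with negative values upstream. All 38 annotated gene lengths are multiples of 3, so the start is the start of the coding sequence.

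Overexpressed Cse4 was found at most lipid genes. A peak overlapped the window in both wild type libraries for 25 of 38 members (65.8%), against a background of 43.6% of all genes. In the alanine mutant it did so for 30 (78.9%), against 57.8%, and in the arginine mutant for 26 (68.4%), against 49.4%. A peak was present in all 6 libraries at 21 members, against 35.4% of all genes, and in no library at 4, against 19.0%. The remaining 13 members had a peak in 2 to 5 libraries. Member windows were longer than those of all genes, with medians of 1824.5 and 1700 bp, and a longer window is met more often.

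Coverage was measured as the share of window bases under peaks. Peaks from wild type cells covered 13.4% and 17.3% of the member windows, against 8.26% and 13.4% of the windows of all genes. In the alanine mutant they covered 17.6% and 19.0%, against 13.4% and 13.8%. In the arginine mutant they covered 12.7% and 18.8%, against 9.07% and 14.3%. The member value was above that of all genes in each of the 6 libraries, and the part of window length and make-up in this was not tested.

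Summits in the upstream 500 bp were frequent among the members. In both wild type libraries 15 of 38 members (39.5%) had one, against 15.0% of all genes. In the alanine mutant it was again 15 (39.5%), against 23.8%, and in the arginine mutant it was 9 (23.7%), against 17.6%. The members with an upstream summit in all 6 libraries numbered 8, against 9.5% of all genes, and 14 had none in any library, against 51.0%. The 8 were ERG11, ERG25, ERG27, ERG2, UPC2, OLE1, INO4 and OPI1.

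Summits inside coding regions were found in both wild type libraries at 13 members, against 22.4% of all genes, at 12 in the alanine mutant (26.8%) and at 16 in the arginine mutant (24.7%). The 8 members with one in all 6 libraries, against 13.1% of all genes, were ERG10, ERG2, ERG24, ERG26, UPC2, ELO1, PCT1 and INO1. There were 9 with none, against 42.3%. ERG7 and ERG9 had a coding summit in both alanine mutant libraries and in no other (backgrounds 4.03% against wild type and 2.55% against the arginine mutant). ECM22 had one in every wild type and arginine mutant library and in neither alanine mutant library (2.28% and 2.02%). HMG1 had one in both arginine mutant libraries alone (1.85% against wild type), and ERG20 in both wild type libraries and neither arginine mutant library (1.18%).

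**Figure D1:**
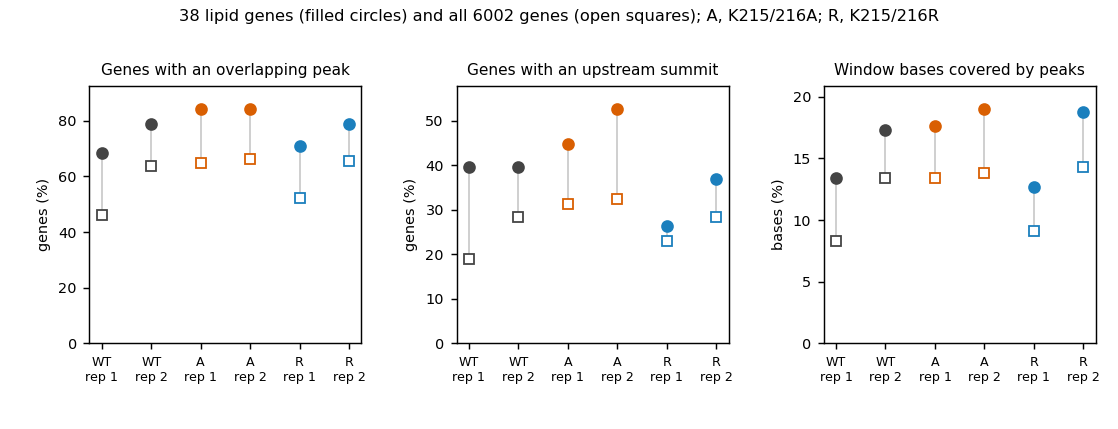
Percent of genes with an overlapping peak, percent of genes with an upstream summit, and percent of window bases covered by peaks, for the 38 members (filled circles) and all 6002 genes (open squares) in each of the 6 libraries. The members lie above all genes in every library of every panel, and the distance is smallest for upstream summits in K215/216R replicate 1, with 26.3% against 23.0%.

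The 3 strains were compared by the number of members reached in each library. Members with an overlapping peak numbered 26 and 30 for wild type, 32 and 32 in the alanine mutant, and 27 and 30 in the arginine mutant. Both alanine mutant libraries lay above the other 4. Of all genes, the shares were 46.3% and 63.7%, 65.0% and 66.4%, and 52.3% and 65.6%. The mean number of members was 28.0 ± 2.83 (SD, n = 2) in wild type, 32.0 ± 0.0 in the alanine mutant and 28.5 ± 2.12 in the arginine mutant. The alanine mutant exceeded wild type by 4.0 members (exact permutation p = 0.333, two-sided) and the arginine mutant by 3.5 (exact permutation p = 0.333). The arginine mutant exceeded wild type by 0.5 (exact permutation p = 1.0), less than the spread between replicates. As shares, the alanine mutant lay above wild type by 10.5 percentage points for the members and by 10.7 for all genes, so the difference was no larger at lipid genes. It lay above the arginine mutant by 9.21 points for the members and 6.74 for all genes. With 2 libraries against 2 the smallest possible p is 0.333, so none of these comparisons could reach the usual threshold. Whether the replicates came from separate cultures is not stated in the labels, so each p reflects only variation among these libraries, some or all of which can be technical. The comparisons with wild type share its 2 libraries.

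Members with an upstream summit numbered 15 and 15 in wild type, 17 and 20 in the alanine mutant, and 10 and 14 in the arginine mutant. The 3 strains did not overlap in this count. Of all genes, 19.0% and 28.3%, 31.2% and 32.5%, and 23.0% and 28.4% had one. The alanine mutant exceeded wild type by 3.5 members, the arginine mutant fell short of it with a difference of -3.0, and the alanine mutant exceeded the arginine mutant by 6.5 (0.333 in all 3 exact permutation tests, which could not go lower). As shares, the alanine mutant lay above wild type by 9.21 points for the members and 8.16 for all genes, and above the arginine mutant by 17.1 and 6.13. The arginine mutant differed from wild type by -7.89 points for the members and 2.03 for all genes, and these differences between members and all genes were not tested. The order of wild type and the arginine mutant depended on the length of the upstream window, and with 1000 bp the difference was 1.5. Covered bases gave 15.3% ± 2.78 (SD, n = 2), 18.3% ± 0.991 and 15.7% ± 4.28 of the member windows in wild type, the alanine mutant and the arginine mutant. The alanine mutant had 2.96 points more than wild type (exact permutation p = 0.333) and 2.56 points more than the arginine mutant (exact permutation p = 0.667), and the arginine mutant exceeded wild type by 0.40 (exact permutation p = 1.0). For all genes the same differences were 2.75, 1.88 and 0.872 points, so the excess of the alanine mutant over wild type was about that of the genome. The shallow libraries, wild type replicate 1 and arginine mutant replicate 1, had the fewest members with a peak and the least covered bases. For thinning, the recovered fragment count at each deposited summit was drawn down at random to the lowest depth. Peaks then below a p threshold were dropped. Peaks were not called again and kept their deposited edges and summits, so this is not a full comparison at equal depth. After this thinning, the alanine mutant exceeded wild type by 3.0 members with a peak, by 1.0 with an upstream summit and by 0.377 points of covered bases. Without wild type replicate 1 it exceeded wild type by 2.0 members with a peak and 0.995 points of covered bases, and without arginine mutant replicate 1 its difference in covered bases from the arginine mutant was -0.468.

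**Figure D2:**
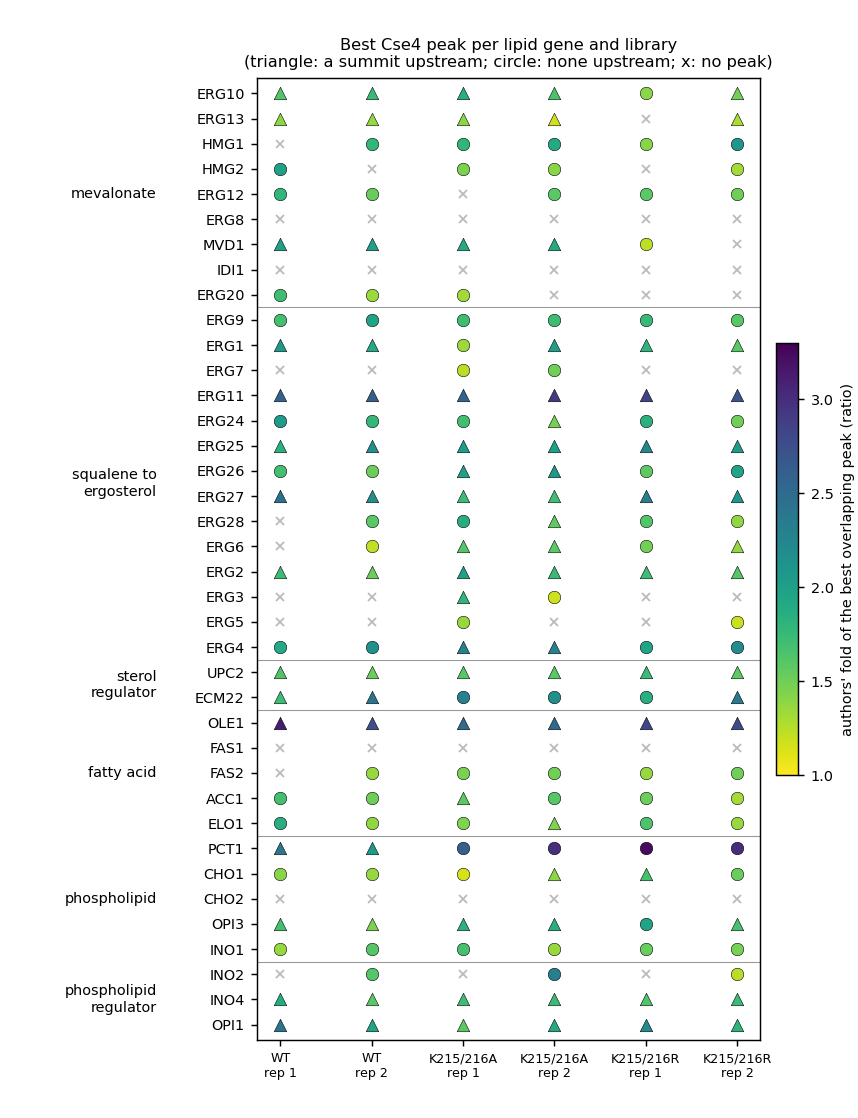
Each row is a member, grouped by role, and each column a library. The colour gives the authors' fold of the best overlapping peak, a triangle marks a summit within 500 bp upstream, a circle a peak without one, and a cross no peak. OLE1 and ERG11 are among the darkest symbols in every column, and PCT1 is so in the mutant columns. ERG8, IDI1, FAS1 and CHO2 have crosses in all 6.

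The share of the windows under peaks varied between roles, and no test was made between them. The 14 genes from squalene to ergosterol had 18.8% ± 8.14 (SD, n = 2) of their bases covered in wild type, 30.6% ± 2.77 in the alanine mutant and 23.6% ± 5.5 in the arginine mutant. The alanine mutant libraries gave 28.6% and 32.6%, above the 4 others, which ran from 13.0% to 27.5%. The 9 mevalonate genes had 8.27% ± 0.561, 9.22% ± 0.744 and 5.86% ± 2.79. These mevalonate means are below those of all genes, which were 10.8% ± 3.62, 13.6% ± 0.256 and 11.7% ± 3.72. The 5 phospholipid enzymes had the highest share in wild type, 32.2% ± 1.24, with 27.1% ± 1.90 in the alanine mutant and 30.5% ± 3.99 in the arginine mutant. The 2 sterol regulators had 22.3% ± 3.38 in wild type, 11.5% ± 0.366 in the alanine mutant and 20.8% ± 12.2 in the arginine mutant. Both alanine mutant libraries, at 11.2% and 11.8%, were below the other 4. This held at ECM22, with 1.29% and 3.53% in the alanine mutant, and not at UPC2. There the alanine mutant had 20.3% and 19.2%, above the 16.3% of arginine mutant replicate 1. The 3 phospholipid regulators had 25.1% ± 3.5, 25.6% ± 7.94 and 21.1% ± 11.6, less apart than their libraries. The 5 fatty acid genes had 7.33% ± 0.361 in wild type and 7.5% ± 0.999 in the arginine mutant, with 10.4% and 9.63% in the alanine mutant libraries. The long coding regions of FAS1, FAS2 and ACC1 make up most of these windows.

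**Figure D3:**
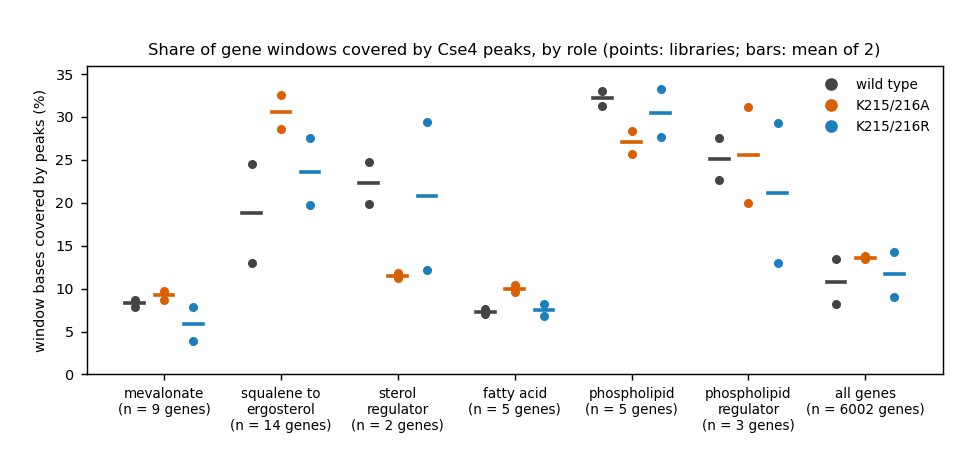
Percent of window bases covered by Cse4 peaks for each role and for all 6002 genes, with a point for each library and a bar for the mean of the 2 libraries of a strain. The squalene to ergosterol genes reach 28.6% and 32.6% in K215/216A, while the mevalonate genes stay below 10% in every library.

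Among the mevalonate genes, upstream summits were found at ERG10, ERG13 and MVD1 and at none of the other 6. ERG10 encodes the thiolase that starts the pathway. Its upstream summit lay between -92 and -27 in 5 libraries and was absent from arginine mutant replicate 1. ERG13, the HMG-CoA synthase, had its summit at exactly -170 in both wild type libraries, both alanine mutant libraries and arginine mutant replicate 2. Its fold was low, at 1.40 and 1.37 in wild type, 1.40 and 1.17 in the alanine mutant and 1.3 in arginine mutant replicate 2. The HMG-CoA reductases HMG1 and HMG2 catalyse the rate-limiting step and had peaks that reached their windows from further upstream. At HMG1 that summit was at -737 in 4 libraries, with folds from 1.69 to 2.08, and at HMG2 it was at -575 or -574 in 3. ERG12, the mevalonate kinase, had a site at 63 in the coding region in 5 libraries and another at -556 in 4. The -556 summit is also within 500 bp upstream of the divergent gene HFA1. ERG8, the phosphomevalonate kinase, and IDI1, the isopentenyl diphosphate isomerase, had no peak in any library.

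From squalene to ergosterol, ERG11 carried the strongest peak. ERG11 (YHR007C, chromosome VIII, 120091 to 121683) encodes lanosterol demethylase, the target of azole antifungals. Its fold was 2.58 and 2.61 in wild type, 2.59 and 2.94 in the alanine mutant, and 2.84 and 2.70 in the arginine mutant. The strains overlapped, and the peak ranked between 13 and 70 in its library. The summit lay at -264 in wild type replicate 1 and between -357 and -352 in the other 5 libraries. The peak was 1395 and 1398 bp wide in the alanine mutant, 477 and 1233 bp in the arginine mutant, and 235 and 749 bp in wild type. The narrower peak of wild type and of the arginine mutant was that of the shallow replicate 1.

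The sterol demethylation enzymes ERG25 and ERG27 also had an upstream summit in all 6 libraries. ERG25 (YGR060W, chromosome VII, 610564 to 611493), the methyl sterol oxidase, had folds of 1.83 and 2.15 in wild type, 2.04 and 2.01 in the alanine mutant, and 2.22 and 2.04 in the arginine mutant. These overlapped between strains. Its summit was between -188 and -176 in 5 libraries and at -236 in alanine mutant replicate 1. ERG27 (YLR100W, chromosome XII, 341810 to 342853), the keto reductase of the same complex, had a summit between -280 and -274 that lies in the coding region of its upstream neighbour MIM2. Its fold there was 2.31 and 2.08 in wild type, 1.73 and 1.71 in the alanine mutant, and 1.74 and 1.79 in the arginine mutant. Both wild type values were above those of the mutants. The local background there was 1.13 and 1.31 times the genome background in wild type and 1.52 to 1.79 times in the 4 mutant libraries, and its part in the fold was not tested.

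ERG27 had a further summit at position 1071 in all 6 libraries, just past its end and between ERG27 and the convergent gene APC9. The fold there was 2.46 and 2.16 in wild type, 2.32 and 2.08 in the arginine mutant, and 1.37 and 1.41 in the alanine mutant. The alanine mutant was lower than the other 4 libraries. The local background at that summit, relative to the genome background, was 2.38 and 2.21 in the alanine mutant and 1.68 to 1.83 in the others. Its part in the lower fold was again not tested.

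ERG4 (YGL012W, chromosome VII, 472855 to 474276), which encodes the last reductase of the pathway, shares its upstream region with the divergent gene PDR1. Its fold was 1.92 and 2.14 in wild type, 2.27 and 2.29 in the alanine mutant, and 1.96 and 2.20 in the arginine mutant. Both alanine mutant values were the highest, but their summit was at -450 and that of the other 4 libraries at -507. ERG2, the sterol isomerase, had an upstream summit in all 6 libraries, between -93 and -89 in 4 of them and at -226 and -242 in alanine mutant replicate 2 and arginine mutant replicate 1. ERG1, the squalene epoxidase, had an upstream summit in 5 libraries, with folds of 1.6 to 2.06. In alanine mutant replicate 1 a peak reached its window, but the summit was at -1041 in the body of ATF2. ERG9, the squalene synthase, had no summit in its own 500 bp, and peaks with a summit between -1049 and -1047, in the body of GPI16, reached its window in 5 libraries. ERG24, a sterol reductase, had 5 libraries with a summit at 1352 to 1354, just past its end, and in wild type replicate 1 at 1301, just inside it. ERG28, the scaffold of the demethylation complex, had a peak in 5 libraries, with its summit at 425 to 428 in wild type replicate 2 and both alanine mutant libraries and at 298 in both arginine mutant libraries. ERG5, a desaturase, had weak peaks near its end in alanine mutant replicate 1 and arginine mutant replicate 2, with folds of 1.36 and 1.19.

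Sites near the starts of OLE1 and PCT1 were the best ranked of the fatty acid and phospholipid genes. OLE1 (YGL055W, chromosome VII, 398628 to 400160) encodes the fatty acid desaturase of yeast. Its fold was 3.13 and 2.75 in wild type, 2.51 and 2.53 in the alanine mutant, and 2.81 and 2.79 in the arginine mutant. Both alanine mutant values were the lowest. The summit was at -155 in 5 libraries and at -160 in wild type replicate 2. The rank in the library was 19 and 14 in wild type, 31 and 41 in the alanine mutant, and 31 and 31 in the arginine mutant. The local background at the summit was 1.22 and 1.08 times the genome background in the alanine mutant and 1.0 in the other 4 libraries, and its part in the lower fold was not tested.

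The other fatty acid genes carried weak peaks or none. FAS1, whose product is a subunit of fatty acid synthase, had no peak in any library over 6156 bp of coding sequence. FAS2, the other subunit, had no upstream summit, and peaks covered 0.0% to 4.19% of its window. ACC1, the acetyl-CoA carboxylase and first committed enzyme of the route, had 3.12% to 12.5% covered. A summit at -554, beyond its 500 bp, recurred in 5 libraries. ELO1, an elongase, had a site between 475 and 537 in all 6 libraries, with mean folds of 1.62 ± 0.337 (SD, n = 2) in wild type, 1.32 ± 0.171 in the alanine mutant and 1.5 ± 0.202 in the arginine mutant.

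**Figure D4:**
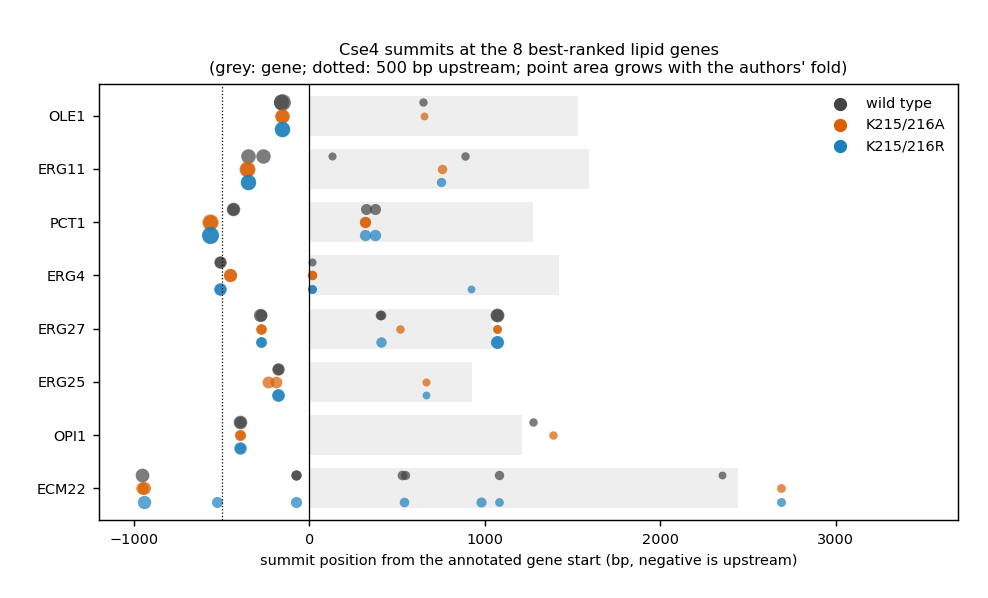
Positions of all summits whose peaks overlap the windows of the 8 members with the best mean percentile of fold, in bp from the gene start. Grey bars are the genes, the dotted line is 500 bp upstream, colours are strains and the point area grows with the authors' fold. OLE1, ERG27 and OPI1 hold an upstream summit within a few bp in every strain, while the PCT1 and ERG4 summits lie at different places in different strains.

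PCT1 (YGR202C, chromosome VII, 903474 to 904748) encodes choline phosphate cytidylyl transferase, an enzyme of the CDP-choline route to phosphatidylcholine. Its best peak had a fold of 2.39 and 2.06 in wild type, 2.61 and 2.99 in the alanine mutant, and 3.23 and 3.0 in the arginine mutant. All 4 mutant values were above both wild type values, but they belong to summits at different places. The summit was at -435 and -434 in wild type and at -565, beyond the 500 bp and in the body of YCH1, in the mutants. The local background was 1.34 and 1.31 times the genome background in wild type and 1.09 to 1.29 times in the mutants, and its part was not tested. The peak ranked 129 and 248 in wild type and between 9 and 26 in the mutants, in lists of different lengths. A second peak with a summit between 316 and 377 in the coding region was present in all 6 libraries, with folds of 1.85 to 1.92.

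The other phospholipid enzymes had weaker peaks. CHO2, the phosphatidylethanolamine methyltransferase, had none in any library. OPI3, the next methyltransferase, had a summit between -53 and -51 in 5 libraries, which also lies upstream of the divergent gene MOG1. The fold at that summit was 1.69 and 1.46 in wild type, 1.35 and 1.47 in the alanine mutant, and 1.66 in arginine mutant replicate 2. The best OPI3 peak of the alanine mutant had its summit at 834, past the gene end and in the body of NPA3, with folds of 1.83 and 1.86. In arginine mutant replicate 1 the summit was at 833, with 1.95. Peaks of wild type and arginine mutant replicate 2 extended across that place without a summit there. CHO1, the phosphatidylserine synthase, had folds of 1.15 to 1.67, and 4 of its 6 summits lay between -523 and -515, past the 500 bp and in the coding region of GAL83. INO1 (YJL153C, chromosome X, 134332 to 135933), the inositol phosphate synthase and the main target of Ino2 and Ino4, had no upstream summit in any library. A site in its coding region between 1252 and 1258 was present in all 6, with mean folds of 1.34 in wild type, 1.33 in the alanine mutant and 1.39 in the arginine mutant.

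The regulators showed different patterns. UPC2 (YDR213W, chromosome IV, 889751 to 892492) had an upstream summit in all 6 libraries, spread from -499 to -307, with folds of 1.64 and 1.53 in wild type, 1.6 and 1.6 in the alanine mutant, and 1.74 and 1.56 in the arginine mutant. The strains overlapped. ECM22 (YLR228C, chromosome XII, 600019 to 602463) had a summit at -77 and -76 in the wild type libraries and at -76 in arginine mutant replicate 2. Both alanine mutant libraries and arginine mutant replicate 1 had no summit there. Upstream of it, wide peaks with a summit between -952 and -941 were present in 4 libraries, with folds of 2.43 in wild type replicate 2, 2.28 and 2.15 in the alanine mutant, and 2.36 in arginine mutant replicate 2. The shallow libraries, wild type replicate 1 and arginine mutant replicate 1, had no summit at that place.

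OPI1 (YHL020C, chromosome VIII, 66242 to 67456), the repressor of phospholipid genes, had a summit between -396 and -393 in all 6 libraries, which lies in the coding region of APM2. Its fold was 2.41 and 1.95 in wild type, 1.58 and 1.90 in the alanine mutant, and 2.21 and 1.81 in the arginine mutant. The alanine mutant overlapped the arginine mutant and did not overlap wild type. The local background was 1.31 times the genome background in alanine mutant replicate 1 and 1.02 to 1.18 times in the other 5 libraries, and its part was not tested. INO4 (YOL108C, chromosome XV, 111431 to 111886) had an upstream summit in all 6 libraries at one of 2 places. It was at -218 in wild type replicate 1 and both alanine mutant libraries, and at -314 or -313 in wild type replicate 2 and both arginine mutant libraries. The wild type libraries were thus split between both places. INO2 (YDR123C, chromosome IV, 698554 to 699468) had a peak in replicate 2 of each strain and in replicate 1 of none, with no upstream summit.

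Some members had an upstream summit in both libraries of 1 strain and in neither of another. There were 3 in the alanine mutant against wild type (7.89%, against 4.9% of all genes), namely ERG4, ERG26 and ERG6. There were 2 in wild type against the alanine mutant (5.26%, against 1.17%), ECM22 and PCT1. In wild type against the arginine mutant there were 2 (5.26%, against 1.12%), PCT1 and MVD1. In the alanine mutant against the arginine mutant there were 3 (7.89%, against 3.75%), ERG4, ERG26 and MVD1. No member had an upstream summit in both arginine mutant libraries and in neither library of wild type (background 1.32%) or of the alanine mutant (background 0.95%). With a -log10 q of at least 10 the calls of PCT1 and ERG4 held. At that threshold ECM22 had no upstream summit in wild type and ERG6 had none in the alanine mutant.

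At PCT1 and ERG4 a peak was present in every library, and its summit lay on different sides of the 500 bp limit. The PCT1 summit was at -435 and -434 in wild type and at -565 in all 4 mutant libraries. A position of -565 lies inside the divergent neighbour YCH1, and -435 lies between PCT1 and YCH1, within 500 bp upstream of both. The ERG4 summit was at -450 in both alanine mutant libraries and at -507 in the other 4. With 1000 bp upstream, both genes had a summit in every library. Across the genome, 570 regions had a peak in all 6 libraries and summits within 20 bp between the libraries of each strain. Of these, 5.79% moved by 50 bp or more between wild type and the alanine mutant, 4.39% between wild type and the arginine mutant, and 3.16% between the mutants. Such regions at members numbered 8, and those of ERG4 and PCT1 moved, while those at OLE1, OPI1, ERG9, ERG2 and ERG27, which had a pair of them, moved by 3.0 bp at most. No test was made of these shifts, which were noticed in the same data.

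**Figure D5:**
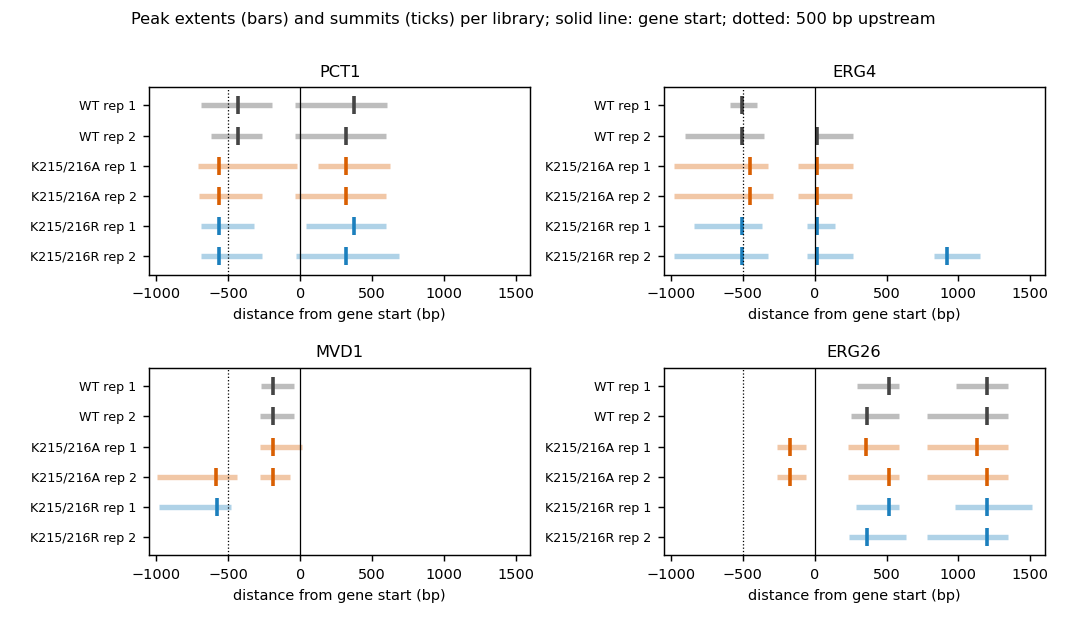
Peak extents (bars) and summits (ticks) in each library at PCT1, ERG4, MVD1 and ERG26, in bp from the gene start. The PCT1 summit is at -435 and -434 in wild type and at -565 in the mutants, the upstream MVD1 peak is missing from K215/216R, and the upstream ERG26 peak is seen in K215/216A.

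MVD1 differed by the presence of a peak. MVD1 (YNR043W, chromosome XIV, 701895 to 703085) encodes the decarboxylase that makes isopentenyl pyrophosphate, and it shares its upstream region of 235 bp with the divergent gene COQ2. Its summit was at -190 and -188 in wild type, with folds of 1.99 and 1.99, and at the same places in the alanine mutant, with folds of 1.92 and 1.90. Neither arginine mutant library had a peak there. Thinning and lists of equal length left this call as it was, and with peaks of a -log10 q of at least 10 it was left in 1 of the wild type libraries. With 1000 bp upstream the call ended, since both arginine mutant libraries then had a summit further upstream. In arginine mutant replicate 1 a weak peak reached the window from a summit at -578 in the body of COQ2, with a fold of 1.23.

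ERG26 lies beside a centromere. ERG26 (YGL001C, chromosome VII, 495453 to 496502), a decarboxylase of the demethylation complex, starts at the edge of the interval between the innermost genes of the chromosome arms (496503 to 497132), which holds the centromere. An upstream summit was present at -168 and -169 in the alanine mutant, with folds of 1.56 and 1.41, and no other library had a peak there. After thinning 1 of the 2 alanine mutant libraries still had it, and with a -log10 q of at least 10 neither did. With 1000 bp upstream both arginine mutant libraries had an upstream summit too, which ended the call against them. Peaks in the coding region and just past its end were present in all 6 libraries. The fold in the coding region was 1.69 and 1.52 in wild type, 1.56 and 2.08 in the alanine mutant, and 1.41 and 1.97 in the arginine mutant, and the strains overlapped. ERG6, the sterol methyltransferase, had an upstream summit at -279 and -151 in the alanine mutant libraries and at -279 in arginine mutant replicate 2, so its alanine mutant summits were at different places.

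Calls on overlap alone separated few members. ERG20, the farnesyl pyrophosphate synthase, had a peak at 187 in both wild type libraries, with folds of 1.70 and 1.35, and in alanine mutant replicate 1, with 1.32. It had none in the arginine mutant, and 1 member of 38 (2.63%) met this rule, against 0.95% of all genes. ERG7, the lanosterol synthase, and ERG3, a desaturase, had peaks in both alanine mutant libraries and in no other, which is 5.26% of members against 5.91% of all genes for wild type and 3.8% for the arginine mutant. The alanine mutant summits were at 468 and 1352 in ERG7 and at -161 and 872 in ERG3, so neither gene had a site seen in both libraries. At equal list length each kept a peak in 1 of the alanine mutant libraries, and ERG20 in 1 of the wild type libraries. With a -log10 q of at least 10, ERG7 and ERG20 had no peak in any library, and ERG3 had a peak in 1 alanine mutant library. With 1000 bp upstream ERG7 had a peak in 1 wild type and both arginine mutant libraries, and ERG3 in 1 arginine mutant library, which ended the call for ERG7 against both strains and for ERG3 against the arginine mutant. No member had a peak in both libraries of wild type and neither of the alanine mutant (background 1.2%). With an overlap of at least 100 bp ECM22 met this rule, with a peak in 2 wild type libraries and 0 alanine mutant libraries.

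The 307 peaks that overlapped member windows had 91 summits upstream, 138 in the coding region and 78 outside the window. Joining summits within 50 bp of each other gave 120 sites, of which 10 were present in all 6 libraries and 47 in 1 library. Of the 10, 4 lay upstream, at ERG25, ERG27, OLE1 and OPI1. There were 5 in coding regions, at ERG10, ERG2, UPC2, ELO1 and INO1, and 1 past the end of ERG27. The upstream neighbour was divergent for 15 members and tandem for 23. Of the 8 with an upstream summit in all libraries, 3 were divergent and 5 tandem.

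By rank within a library, the best peak of a member was in the top 10% by fold for 5 and 11 of 38 members in wild type (13.2% and 28.9%), against 7.01% and 10.3% of all genes. In the alanine mutant the numbers were 12 and 13 (31.6% and 34.2%), against 10.1% and 10.8%. In the arginine mutant they were 6 and 9 (15.8% and 23.7%), against 7.76% and 11.0%. OLE1, ERG11 and PCT1 were in the top 10% in all 6 libraries, and 18 members were there in at least 1.

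A further 51 lipid genes, listed from general knowledge, were read in the same way. Both libraries had a peak at 28 of 51 in wild type, 36 in the alanine mutant and 28 in the arginine mutant, against 43.6%, 57.8% and 49.4% of all genes. An upstream summit in both was found at 10, 11 and 12 of them, against 15.0%, 23.8% and 17.6%, so these counts lay near the background. Their windows were covered by 11.4% ± 3.3 (SD, n = 2), 12.7% ± 0.410 and 11.5% ± 4.41, beside the 10.8%, 13.6% and 11.7% of all genes. The 7 of 51 with an upstream summit in all 6 libraries, against 9.5% of all genes, were NCP1, HES1, SET4, CKI1, PGS1, DGK1 and ITR1. NCP1 (chromosome VIII, 190543 to 192618), the reductase that passes electrons to Erg11, had folds of 1.68 and 2.36 in wild type, 1.44 and 1.71 in the alanine mutant, and 2.44 and 2.39 in the arginine mutant. Its arginine mutant values were above the other 4, and its summits were spread from -423 to -102. CKI1, the choline kinase, had its summit at -195 in both alanine mutant libraries and between -47 and -42 in the other 4. DGK1, a diacylglycerol kinase, had its summit at -13 in 5 of 6 libraries. ROX1, a repressor of hypoxic genes, had a summit at -17 in both alanine mutant libraries, with folds of 1.62 and 1.31, and no peak in the other 4. EPT1, an ethanolamine phosphotransferase, had one at -418 in both alanine mutant libraries, with folds of 1.48 and 1.28, and likewise no peak elsewhere. For an upstream summit in both alanine mutant libraries, the backgrounds are 4.9% with neither wild type library and 3.75% with neither arginine mutant library. CRD1, the cardiolipin synthase, had an upstream summit in both libraries of wild type and the arginine mutant and in neither of the alanine mutant. The backgrounds for this are 1.17% for wild type and 0.95% for the arginine mutant.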

How the data were processed

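Cse4-bound DNA, sonicated to about 100 bp, was sequenced from 6 immunoprecipitated libraries, and the 6 input libraries and the merged peak lists were not used here. Per the submitters' processing notes, the tools were Bowtie 1.0.0, MACS2 2.1.1.20160226 and bedtools 2.25.0 with the sacCer3 build, and the control and filters are not given in the sources used here. The authors deposited 1 peak list per library, with replicates not pooled. Each deposited peak has a fold (a ratio of pileup to local background at the summit), a -log10 p and a -log10 q, and the authors' lists hold only peaks with a -log10 q of 1.3 or more. A score column, also deposited, equals the -log10 q multiplied by 10 and cut to a whole number, and the deposited summit offset gives the summit's distance from the peak start.

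Peaks were compared with nuclear protein-coding genes of the RefSeq R64 annotation, with strand from the systematic name. A peak was counted from 1 bp of overlap. Pileup and local background were recovered from fold and p for 99.6% to 99.8% of peaks (to within 0.001 in -log10 p). The lowest recovered background was taken as the genome background, which sets the precision of each list. Strains were compared by exact two-sided permutation over libraries (9 differences, Python 3.11.15, scipy 1.17.1). The recovery of pileup and background and the calling of upstream summits were tested on simulated data, and thinning was not part of that test. Alternatives were a stricter q, equal list length, thinning, other upstream lengths, an overlap of 100 bp and leaving out each library.

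Genes were named with values if among the 8 best by mean percentile of fold, if called in both libraries of 1 strain and neither of another, if without any peak, or if a regulator or INO1. Others were added by role after their values were seen. The members and lists were chosen with earlier results of these data known. The joining of summits, the rule for moved summits and the pairing check were set after seeing the data. Promoter sequences were not used here, so no motif was searched.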

Additional observations from a re-analysis of the deposited data

How the results depend on the processing

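As means over libraries, the alanine mutant exceeded wild type in all 3 measures under every alternative run. It also exceeded the arginine mutant in members with a peak and with an upstream summit under each of them. The count of members with an upstream summit in both libraries did not keep the order against wild type. At equal list length it was 15 in wild type and 13 in the alanine mutant, against 12.9% and 15.8% of all genes. After thinning it was 15 and 12, against 13.5% and 16.7%. In covered bases the difference of the alanine mutant from the arginine mutant ranged from -0.468 to 5.58 percentage points when each library was left out. The small differences of the arginine mutant from wild type changed direction. For members with a peak the difference was -1.0 at equal list length, -0.5 after thinning and -1.5 to 2.5 when each library was left out. For upstream summits it was 1.5 with a -log10 q of at least 10 and 1.5 with 1000 bp upstream, and -5.0 to -1.0 when each library was left out. For covered bases it was -0.404 at equal list length and -2.63 to 3.43 when each library was left out. The cause was not tested.

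With a -log10 q of at least 10, members with a peak in both libraries numbered 7 in wild type, 18 in the alanine mutant and 13 in the arginine mutant, against 11.1%, 20.7% and 16.7% of all genes, and upstream summits in both numbered 6, 9 and 6, against 3.75%, 8.2% and 5.91%. At this threshold the lists held 613 peaks in wild type replicate 1, 947 in arginine mutant replicate 1 and 1389 to 1886 in the others. With 250 bp upstream the latter were 8, 9 and 3 in the 3 strains, and with 1000 bp 23, 27 and 22. For the arginine mutant it was 10 to 14 when either of its libraries was left out, with 14 without replicate 1. Of 141 alternatives for 15 results, 119 kept the direction of a difference or held a count within 1.5 times. The size of a difference often moved: that of the alanine mutant from wild type was 0.377 to 5.51 points of covered bases across the other settings.

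The labels give the same replicate numbers to all strains. Deviations of same-numbered libraries over 6002 genes correlated at 0.014 for wild type and the alanine mutant and at 0.025 for the 2 mutants. For wild type and the arginine mutant the value was 0.235, and replicate 1 was the shallow library of both. Whether depth or a shared batch lies behind that value was not tested. With the replicate block the differences were as in the report (4.0, 0.5 and 3.5 members with a peak, 3.5, -3.0 and 6.5 with an upstream summit, and 2.96, 0.40 and 2.56 points of covered bases), and the smallest possible exact permutation p was 0.5.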
